A study of Homo sapiens with 12 samples.

Results

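The nuclear oxidative phosphorylation subunits are the proteins of the 5 respiratory complexes whose genes lie in the nucleus. Members were taken by human symbol from the deposited table of exon and intron counts: symbols starting with NDUFA, NDUFB, NDUFC, NDUFS or NDUFV followed only by digits, SDHA to SDHD, CYC1, and symbols starting with UQCR, COX4 to COX8 or ATP5. The rule found 82 of the 17508 genes in the table, with 35 in complex I, 4 in complex II, 10 in complex III, 16 in complex IV and 17 in complex V. NDUFA4, now placed in complex IV, was counted in complex I by its symbol.

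The respiratory chain of the inner mitochondrial membrane passes electrons from NADH and succinate to oxygen, and complexes I, III and IV use the energy released to pump protons out of the matrix. Complex V, the ATP synthase, lets the protons flow back and makes ATP. The mitochondrial genome encodes a few core subunits, while the nucleus encodes the rest. Complex II is nuclear in full, and the other complexes are built from the products of both genomes.

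The libraries came from a study that imaged proteins and a platinum drug inside cells, and they profile RNA after drug exposure. Cultures labelled TYK-nu, a line from a high-grade serous ovarian carcinoma, received 15 µM cisplatin, which crosslinks DNA, or its solvent control DMSO. Poly(A)+ RNA was sequenced in strand-specific, paired-end libraries, 3 per group. The 4 groups were DMSO for 24 h, cisplatin at 15 µM for 24 h, DMSO for 72 h and cisplatin at 15 µM for 72 h.

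Counts summed over exons and introns were 28106882, 30792139 and 19940352 in the DMSO libraries at 24 h (replicates 1 to 3), and 24542748, 36911333 and 18526830 in cisplatin at 24 h. At 72 h they were 26921033, 28578024 and 44713703 in DMSO and 49205311, 68753262 and 31908403 in cisplatin. The members held between 1.09 and 1.25% of a library's exon counts.

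The labelled cell type was checked against marker genes, in exon CPM (counts scaled to a common library total, with library sizes adjusted by the trimmed mean of M-values, TMM), and the markers went against the label. Among 8 epithelial and serous ovarian markers, CDH1 and SOX17 had 0 exon counts in the 12 libraries, PAX8 reached at most 0.0758 CPM and KRT7 at most 0.303 CPM. Group means of EPCAM in DMSO 24 h, cisplatin 24 h, DMSO 72 h and cisplatin 72 h were 0.264, 0.224, 1.38 and 1.45 CPM. WT1 had 3.19, 2.85, 1.91 and 2.38 CPM in that order. KRT8 had 13.1, 12, 32.4 and 32.0 CPM, and KRT18 was the most abundant of the list with 173, 175, 134 and 145 CPM. Of 3 mesenchymal markers, VIM had 7111, 6966, 8334 and 8222 CPM, FN1 39.7, 37.3, 49.2 and 52.1 CPM, and CDH2 had 0 exon counts. Exon entries can hold part of a gene, so 0 exon counts need not mean no expression. Intron counts summed over the 12 libraries were 0 for SOX17 and CDH2, 3 for CDH1 and for PAX8, 13 for EPCAM, 15 for KRT7, 114 for WT1, 870 for KRT18, 7782 for KRT8 and 16598 for VIM.

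Among 9 markers of cells that the culture should lack, PECAM1 and CDH5, which encode adhesion proteins of endothelial cells, were abundant. PECAM1 had 2387, 2475 and 2491 CPM in DMSO at 24 h, 2412, 2433 and 2473 in cisplatin at 24 h, 1350.3, 1375 and 1437 in DMSO at 72 h, and 1524, 1415 and 1428 in cisplatin at 72 h. CDH5 had group means of 1009, 987, 684 and 758 CPM in that order. In introns PECAM1 and CDH5 had 6088 and 6550 counts over the 12 libraries. The leukocyte, neural and muscle markers PTPRC, PTPRZ1 and DES had 0 exon and 0 intron counts, MYH7 and ALB reached at most 0.0312 and 0.0539 CPM, and CD3E and LYZ at most 0.905 and 0.576 CPM. TIE1, KDR and TEK were looked up after PECAM1 and CDH5 had been seen. TIE1 had group means of 1783, 1776, 2409 and 2506 CPM, KDR of 263, 256, 260.1 and 284 CPM, and TEK of 151, 150.3, 141 and 146 CPM. The origin of these counts was not tested, and the results below describe libraries labelled TYK-nu.

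**Figure D1:**
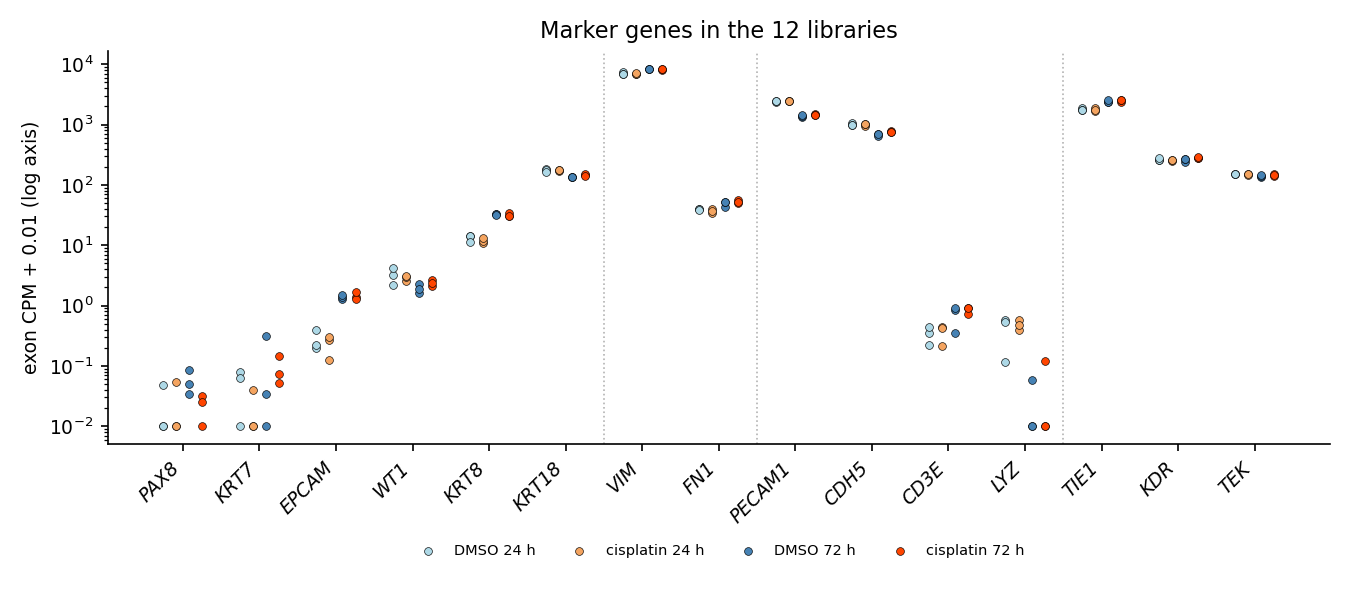
Exon CPM plus 0.01 (log axis) of marker genes, with 1 point per library, 3 libraries in each of the 4 groups; dotted lines part the epithelial, mesenchymal and other-cell markers and the 3 genes looked up afterwards. PECAM1 lies between 1350.3 and 2491 CPM, while PAX8 reaches at most 0.0758 CPM.

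Exon entries existed for 79 members and intron entries for 81, with both for 78. NDUFB11, NDUFB4 and SDHD had no exon entry, and UQCRHL, a gene of a single exon, had no intron entry. After the filter on low counts, 71 members were tested for exon counts among 10444 genes, 76 for intron counts among 9618 genes, and 70 for the exon/intron ratio among 9393 genes. By complex, the 71 were 32 of complex I, 2 of complex II, 10 of complex III, 11 of complex IV and 16 of complex V. Besides the 3 members without an exon entry, NDUFA12, SDHC, COX4I2, COX6A2, COX6B2, COX7A1, COX8C and ATP5MF-PTCD1 were not tested for exon counts. Intron counts were not tested for UQCRHL, COX4I2, COX6A2, COX6B2, COX7A1 and COX8C. The subunit genes ATP5F1A, ATP5MC2, NDUFA6 and NDUFB1 were not found in the table by symbol, nor were the mitochondrially encoded subunits.

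The members were spread over 22 chromosomes, with 12 on chromosome 19 and 8 on chromosome 1. The canonical transcripts of the 71 tested members had a median exon length of 763 bases and a median of 4 exons, against 3268 bases and 9 exons for 10436 tested genes with a length. Their median mean exon count was 3894 per library, against 1132. Named pseudogenes existed for 46 of the 82 members, 174 in all, so that fragments of near-identical copies are uncertain. Another gene overlapped 32 members on their own strand and 37 on the opposite strand. The strand option of the counting was not stated, so these counts may hold fragments of the neighbour.

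Levels of different members were compared as exon CPM per kilobase of the canonical transcript, as the mean of the 12 libraries. UQCRH, whose acidic hinge protein lies where complex III meets cytochrome c, was highest with 893. ATP5F1B, the catalytic beta subunit of the ATP synthase, followed with 809.6, and COX4I1, the widely expressed form of the largest nuclear subunit of complex IV, had 651. UQCRH had group means and SDs (n = 3) of 835 ± 19.2 and 895 ± 24.1 at 24 h and 942 ± 36.8 and 902 ± 99.1 at 72 h, in DMSO and cisplatin. ATP5F1B had 867 ± 29.7, 871 ± 25.8, 764 ± 23.5 and 736 ± 20.6 in the same order. With the union of all annotated exons as length, ATP5F1B came first with 636, followed by COX8A with 606 and NDUFS5 with 429. UQCRH then had 358 and COX4I1 103, so the order rests on the length used. The exon entries seemed to hold only part of the annotated exons of some genes, which limits a level per length further.

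By complex, the median level of the tested members was 83.5 in complex I, 137 in complex II, 122 in complex III, 271 in complex IV and 143 in complex V. Over all 71 it was 137, against 10.4 for 10436 tested genes. NDUFV3, with 0.139, was the lowest tested member, and the other 70 lay at 8.29 (NDUFS8) or above. Among members not tested, COX8C had 0.0320, COX6B2 0.0125, COX4I2 0.0119 and SDHC 0.00591. COX6A2 and COX7A1, the heart and muscle isoforms of complex IV subunits, had 0 exon and 0 intron counts in the 12 libraries.

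**Figure D2:**
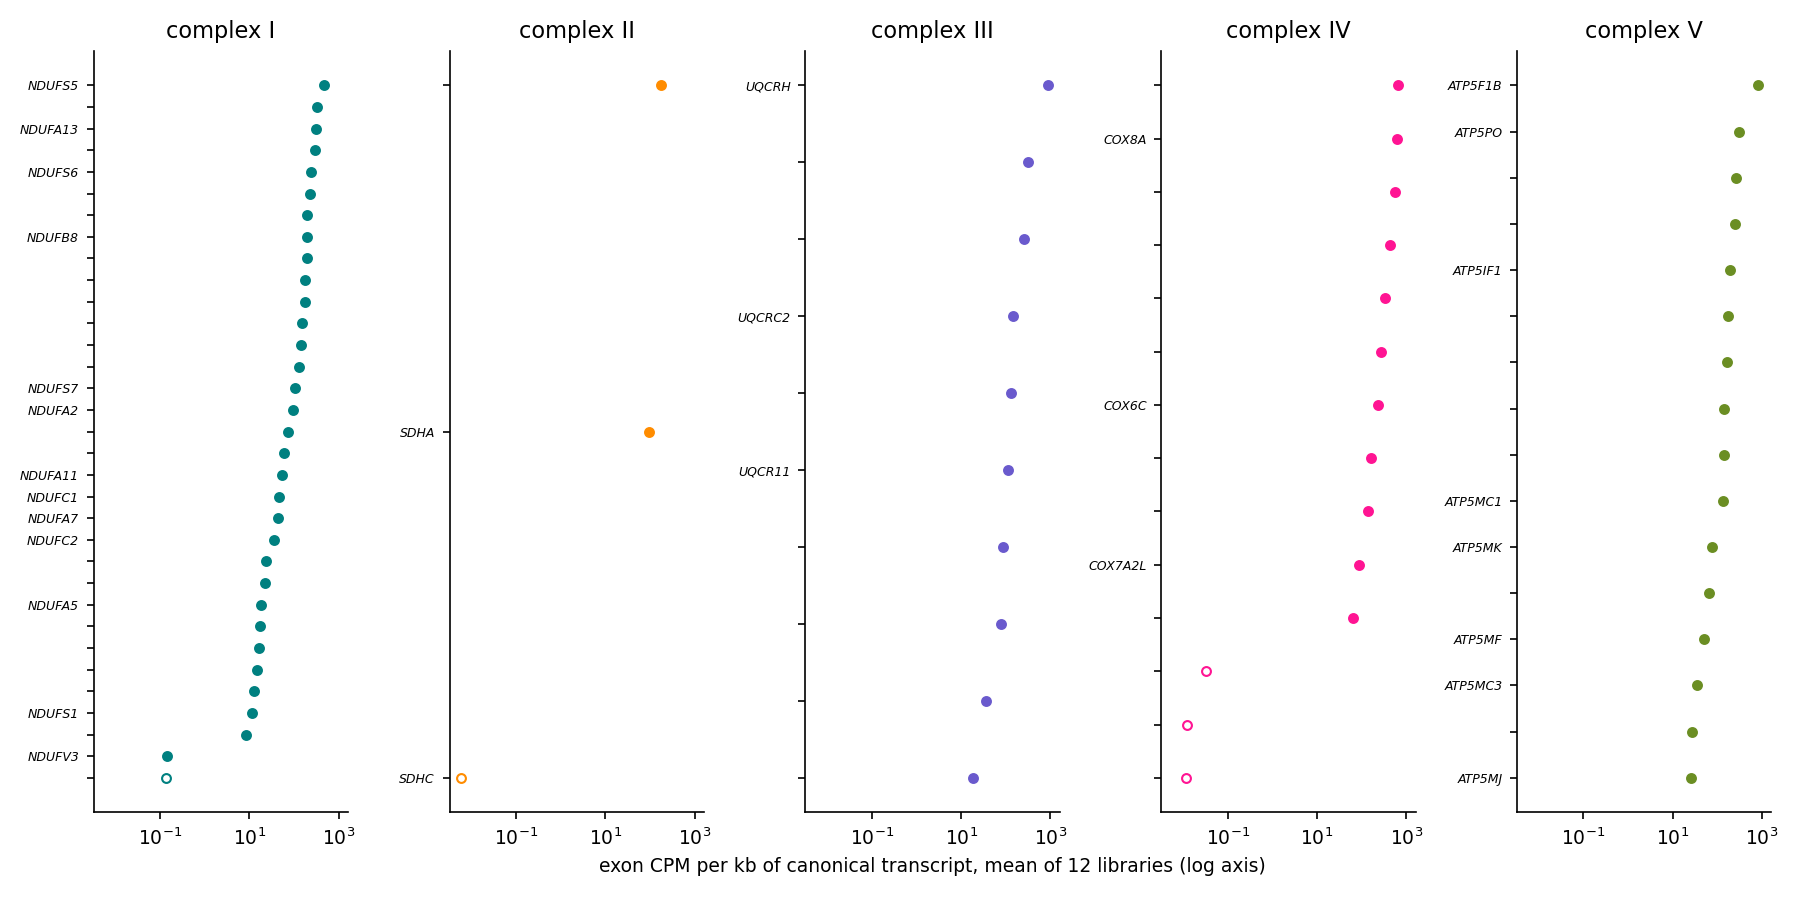
Exon CPM per kilobase of canonical transcript (log axis), mean of 12 libraries, 1 point per member with a value above 0, by complex; filled points were tested, and labels mark members named for their changes between groups. UQCRH (893), ATP5F1B (809.6) and COX4I1 (651) are highest and SDHC (0.00591) is lowest.

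Promoter sequences of 300 bases around listed starts came from RefSeq (GRCh38.p14) and matched 64 of the 82 members, with 74 starts in all. Members without a matched entry include ATP5F1B, ATP5F1D, ATP5MC3, ATP5MF, ATP5MF-PTCD1, COX4I2, COX6C, COX7A1, CYC1, NDUFA4, NDUFB5, NDUFB9, NDUFC2, NDUFS5, SDHC, UQCRB and UQCRHL. Letters known from the binding sites of factors that control respiratory genes were searched on both strands. The NRF1 core GCGCATGCG was held by 10 members, which is 15.6% of the 64, against 2.34% of 27305 genes and 4.46% of the 8504 tested genes with a promoter. The ETS core CCGGAAGT was held by 11 members (17.2%, against 4.95 and 10.7%). The YY1 core ATGGCGG was held by 20 members (31.2%, against 6.66 and 13.4%). A TATA box, TATAAA, was held by 7 members (10.9%, against 14 and 7.83%). At least 1 of the first 3 motifs was found for 31 of the 64 members (48.4%) and for 12.6% of all genes with a promoter. ATP5PF, over its listed starts, and SDHD held all 3 of them. A match does not show binding.

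The promoters of 4 members whose counts differed between 24 and 72 h are printed 5′ to 3′ on the gene's strand, with matches in capitals. NDUFS7 (chr19:1383657-1383956, + strand) and NDUFS6 (chr5:1801157-1801456, + strand) are shown because each holds an NRF1 core and a YY1 core while their exon counts moved in opposite directions. NDUFA13 (chr19:19515975-19516274, + strand) holds an ETS core and 2 YY1 cores, and its exon counts rose. UQCRH (chr1:46303448-46303747, + strand) holds an ETS core, and its intron counts rose. Among the other members with an ETS core, ATP5MK, ATP5PD, ATP5PF and NDUFS1 fell in exon counts between 24 and 72 h in both treatments. COX5B rose in both, UQCR11 rose in DMSO, COX8A and UQCRQ did not pass, and SDHD had no exon entry. Some of these calls were lost in other settings, as given below. Matches on the other strand appear as the reverse complement, CGCATGCGC for the NRF1 core in NDUFS7 and ACTTCCGG for the ETS core in UQCRH.
NDUFS7: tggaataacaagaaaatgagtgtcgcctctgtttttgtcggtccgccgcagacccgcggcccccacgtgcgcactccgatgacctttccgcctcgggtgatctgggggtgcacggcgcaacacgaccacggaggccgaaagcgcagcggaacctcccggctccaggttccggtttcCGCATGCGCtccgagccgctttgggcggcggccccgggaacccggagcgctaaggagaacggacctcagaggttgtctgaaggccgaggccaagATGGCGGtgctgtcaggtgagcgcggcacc
NDUFS6: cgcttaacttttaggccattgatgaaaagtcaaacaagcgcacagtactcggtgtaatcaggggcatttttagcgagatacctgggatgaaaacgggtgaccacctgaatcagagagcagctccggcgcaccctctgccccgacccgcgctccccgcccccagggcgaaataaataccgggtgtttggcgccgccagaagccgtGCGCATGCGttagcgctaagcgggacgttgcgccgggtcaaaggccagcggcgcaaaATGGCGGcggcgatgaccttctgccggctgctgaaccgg
NDUFA13: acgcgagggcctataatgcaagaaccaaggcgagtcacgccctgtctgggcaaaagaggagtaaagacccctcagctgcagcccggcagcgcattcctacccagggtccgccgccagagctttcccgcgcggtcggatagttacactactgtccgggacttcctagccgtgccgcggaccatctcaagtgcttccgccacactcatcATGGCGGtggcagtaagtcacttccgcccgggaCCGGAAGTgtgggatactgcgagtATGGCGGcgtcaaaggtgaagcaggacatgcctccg
UQCRH: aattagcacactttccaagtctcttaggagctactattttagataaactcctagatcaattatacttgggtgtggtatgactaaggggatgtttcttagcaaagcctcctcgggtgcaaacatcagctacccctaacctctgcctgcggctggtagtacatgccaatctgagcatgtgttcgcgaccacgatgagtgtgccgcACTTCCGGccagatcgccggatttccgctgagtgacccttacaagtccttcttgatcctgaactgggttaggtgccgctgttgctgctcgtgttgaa

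The first question was whether cisplatin altered the members' counts. Exon and intron counts were tested separately with the edgeR quasi-likelihood test and Benjamini-Hochberg adjustment over all genes tested, and a gene passed at an adjusted p under 0.05. These p-values measure only the spread between these cultures. In exon counts at 24 h, edgeR called 0 of 71 members (0% of all 10444 genes passed), 0 members at an unadjusted p under 0.05 (2.49% of genes), and DESeq2 called 0 of 76 (0%). At 72 h edgeR called 0 of 71 members (0.0287% of genes), 16 had an unadjusted p under 0.05 (12.6%), and DESeq2 called 0 of 60 (1.97%). For the difference of the cisplatin effect between 72 and 24 h, edgeR called 0 members (0% of genes) and 10 had an unadjusted p under 0.05 (9.43%). DESeq2 was not run for that difference, here or in intron counts. The 0 at an unadjusted p at 24 h became 1 without cisplatin 24 h replicate 1 or cisplatin 72 h replicate 1.

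The members' exon log2 changes nevertheless had medians on opposite sides of 0 at the 2 times. At 24 h the median of cisplatin against DMSO was 0.03, with 56 of 71 members above 0, against -0.00 over all genes with 5193 of 10444 above 0. At 72 h it was -0.09, with 11 of 71 above 0, against 0.00 over all genes with 5246 above 0. For the difference between the times the median was -0.13, with 8 of 71 above 0, against 0.00 over all genes. The medians at 24 and 72 h kept their sign under the other normalization, DESeq2 and each library left out, but their size moved. Without DMSO 72 h replicate 2 or cisplatin 72 h replicate 1, the median at 72 h became -0.04 and the 16 members at an unadjusted p under 0.05 became 3, while they became 25 without DMSO 72 h replicate 3. The median of the difference became -0.07 without either of the first pair, and its 10 members became 3 and 4. Those 10 became 5 and 6 without cisplatin 24 h replicate 3 and replicate 1, 16 without cisplatin 24 h replicate 2, and 18 without DMSO 72 h replicate 3 or cisplatin 72 h replicate 3, or with no filter. The median at 24 h became 0.01 without DMSO 24 h replicate 3. The members' median log2 exon level, centred per gene, was -0.08, 0.09 and -0.05 in the DMSO libraries at 72 h and -0.17, -0.04 and -0.02 in the cisplatin libraries, so the groups overlapped. At 24 h it was 0.02, 0.05 and -0.01 in DMSO and 0.03, 0.02 and 0.10 in cisplatin, also with overlap.

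By complex, the medians at 72 h were -0.09 in complex I, -0.06 in complex III, -0.10 in complex IV and -0.11 in complex V, where 15 of 16 members lay below 0. Without DMSO 72 h replicate 2 they became -0.05, -0.03, -0.05 and -0.05, and without cisplatin 72 h replicate 1 -0.05, -0.01, -0.06 and -0.06. Complex III had -0.10 without DMSO 72 h replicate 1. In complex II, with 2 members tested, the median at 72 h was -0.01, with 1 member above 0. All 3 cisplatin libraries lay below all 3 DMSO libraries at 72 h for 10 of 71 members (9.30% of genes), and above them for 0 members (8.85%). At 24 h they lay above for 3 members (3.33%) and below for 0 (3.09%). Mitochondrial ribosomal protein genes, another large set of nuclear genes for mitochondria, had a median of -0.10 at 72 h (-0.06 without DMSO 72 h replicate 2) with 7 of 73 above 0. Centred per gene, the library medians of complex V at 72 h were -0.10, 0.03 and -0.12 in DMSO and -0.25, -0.14 and -0.13 in cisplatin. Those of the ribosomal protein genes were 0.04, 0.07 and -0.05 against -0.15, -0.06 and -0.11. Neither overlapped, but the nearest libraries lay very close, -0.12 against -0.13 and -0.05 against -0.06. The library medians of complexes I, III and IV overlapped. Assembly factors of the complexes had a median of -0.08 at 72 h with 10 of 43 above 0. At 24 h the ribosomal protein genes had a median of 0.01 with 46 of 73 above 0, and the assembly factors 0.03 with 30 of 43. For the difference between the times their medians were -0.12 and -0.11, with 7 of 73 and 12 of 43 above 0, beside -0.13 for the members.

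The members with the smallest p at 72 h were ATP5MF, subunit f of the membrane part of the ATP synthase, and NDUFS5, an accessory subunit of complex I. ATP5MF had 20.1, 19.3 and 16.9 exon CPM in DMSO and 15.6, 15.5 and 16.5 in cisplatin. The groups did not overlap, and the log2 change of -0.24 (SE 0.08) had an adjusted p of 0.240 by edgeR (0.0713 to 0.794 over 17 other settings). NDUFS5 had 214, 207 and 194 CPM in DMSO and 173, 187 and 189.5 in cisplatin, again without overlap, with a log2 change of -0.16 and an adjusted p of 0.251. At 24 h the smallest p belonged to UQCRH and to NDUFB8, an accessory subunit of the membrane arm of complex I. UQCRH had 458, 449 and 438 CPM in DMSO and 466, 483 and 492 in cisplatin, a log2 difference of 0.10 with an adjusted p of 1. NDUFB8 had 115, 114 and 109.6 against 116, 120.2 and 122 CPM, a log2 difference of 0.08 with an adjusted p of 1. In both genes the cisplatin libraries lay above the DMSO libraries at 24 h, and neither gene passed.

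In intron counts at 24 h, edgeR called 0 of 76 members for cisplatin against DMSO (0.0208% of 9618 genes), 1 had an unadjusted p under 0.05 (5.00%), and DESeq2 called 0 of 78 (0%). At 72 h edgeR called 0 of 76 (0.0416%), 5 had an unadjusted p under 0.05 (6.46%), and DESeq2 called 0 of 78 (0.0220%). The difference of the effect between the times gave 0 members (0.0416%) and 1 at an unadjusted p under 0.05 (5.71%). The median log2 change of the members at 24 h was 0.01 (0.02 without DMSO 24 h replicate 1 or 2, 0.00 without cisplatin 24 h replicate 3, -0.02 without DMSO 24 h replicate 3 or cisplatin 24 h replicate 1) and 0.09 with the library sizes of the exon counts. At 72 h it was -0.04 (-0.01 without DMSO 72 h replicate 2, -0.02 without cisplatin 72 h replicate 1) and 0.04 with those sizes, so its sign rests on the scaling. The 1 member at an unadjusted p at 24 h became 5 without DMSO 24 h replicate 3 or cisplatin 24 h replicate 1, 4 without cisplatin 24 h replicate 3, 3 without DMSO 24 h replicate 2 and 2 without cisplatin 72 h replicate 3, and 4 with the library sizes of the exon counts, 3 with no filter and 2 with the 6 libraries alone. The 5 at 72 h became 2 without DMSO 72 h replicate 2 or cisplatin 72 h replicate 3. The 1 for the difference became 5 without DMSO 24 h replicate 3, 4 without cisplatin 72 h replicate 2, 3 without DMSO 24 h replicate 2, DMSO 72 h replicate 3 or cisplatin 24 h replicate 1, and 2 without DMSO 72 h replicate 1 or 2 or cisplatin 72 h replicate 3. NDUFC2, a membrane arm subunit of complex I, had the smallest p at 72 h. Its intron CPM were 253, 222 and 185 in DMSO and 158, 163 and 161 in cisplatin, without overlap, and the log2 change of -0.45 (SE 0.11) had an adjusted p of 0.149 by edgeR. Over 18 other settings that p ran from 0.0151 to 0.986. It passed with no filter on low counts (-0.43), with the 6 libraries alone (-0.44), without cisplatin 24 h replicate 2 (-0.44) and without DMSO 72 h replicate 3 (-0.56). NDUFC2 shares its strand and locus with the read-through gene NDUFC2-KCTD14.

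Other intron values with small p stayed further from the threshold. ATP5MF-PTCD1, a read-through gene model over ATP5MF, had 1366, 1442 and 1296 intron CPM in DMSO and 1163, 1236 and 1151 in cisplatin at 72 h, a log2 change of -0.21 with an adjusted p of 0.704. At 24 h ATP5F1B had 54.0, 68.2 and 85.0 intron CPM in DMSO and 78.4, 101 and 86.8 in cisplatin, a log2 difference of 0.39 with an adjusted p of 0.942. NDUFB11, a membrane arm subunit of complex I, had 7.95, 5.60 and 11.3 against 9.73, 13.0 and 19.8 CPM, a difference of 0.77 with an adjusted p of 0.942. The ATP5F1B and NDUFB11 groups overlapped.

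The exon/intron ratio of a gene, its exon counts per intron count, was tested in edgeR as the interaction of count kind and group. At 24 h edgeR called 0 of 70 members for cisplatin against DMSO (0% of 9393 genes) and 4 had an unadjusted p under 0.05 (6.33%). At 72 h it called 0 of 70 (0.0213%), with 6 at an unadjusted p under 0.05 (6.24%), and for the difference between the times 0 (0%), with 2 at an unadjusted p under 0.05 (4.56%). The members' median log2 change was -0.06 at 24 h and -0.12 at 72 h, against -0.09 and -0.08 over all genes. At 24 h it became -0.01 and -0.03 without cisplatin 24 h replicate 2 and DMSO 24 h replicate 2, and -0.11 and -0.13 without DMSO 24 h replicate 3 and cisplatin 24 h replicate 3. The 4 members at an unadjusted p under 0.05 became 2 without DMSO 24 h replicate 1 or cisplatin 24 h replicate 2, the 6 became 12 without DMSO 72 h replicate 3, and the 2 became 6 without DMSO 72 h replicate 3, 4 without cisplatin 24 h replicate 2, and 1 without DMSO 72 h replicate 1 or 2, cisplatin 24 h replicate 3 or cisplatin 72 h replicate 2. The logistic regression used in the study, which leaves out the spread between replicates, called 0 of 70 members higher (0.765% of 9678 genes) and 6 lower (10.7%) at 24 h. At 72 h it called 1 of 71 higher (1.73% of 10011 genes) and 12 lower (9.70%). With a dispersion estimated per gene (quasi-binomial), it called 0 at both times (0% of genes in each), with 1 and 5 members at an unadjusted p under 0.05 (5.48 and 6.82% of genes). Without cisplatin 24 h replicate 2 the 6 calls at 24 h became 0, and the 13 at 72 h became 8 without DMSO 72 h replicate 1, DMSO 72 h replicate 2 or cisplatin 72 h replicate 2.

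The ratios with the smallest p by edgeR were those of ATP5F1B and COX8A at 24 h and of ATP5MK and UQCR11 at 72 h. ATP5F1B had 385, 339 and 229 exon counts per intron count in DMSO and 252, 183 and 259 in cisplatin, with a log2 change of -0.48 and an adjusted p of 0.759. COX8A, a small subunit of complex IV, had 447, 660.4 and 289.6 against 258, 225 and 399, a change of -0.74 with an adjusted p of 0.759. These groups overlapped, and COX8A had few intron counts, 292 over the 12 libraries. ATP5MK, a small subunit that links ATP synthase dimers, had 31.4, 31.0 and 21.3 in DMSO and 20.7, 15.7 and 15.3 in cisplatin at 72 h, a change of -0.65 with an adjusted p of 0.593. UQCR11, a small subunit of complex III, had 67.4, 81.5 and 61.5 against 42.6, 49.7 and 54.5, a change of -0.51 with an adjusted p of 0.708. In both genes all 3 cisplatin libraries lay below all 3 DMSO libraries.

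The second question was how counts differed between 72 and 24 h within each treatment. Each of these time comparisons shares its libraries with the cisplatin comparisons above. They share no library with each other, but in edgeR they came from the same fit and share its estimate of the spread. In exon counts, edgeR called 21 of 71 members higher (32.6% of 10444 genes) and 27 lower (32.5%) at 72 h in DMSO. In cisplatin it called 13 higher (32.0%) and 34 lower (31.5%). The members' median log2 change was -0.03 in DMSO and -0.14 in cisplatin, against 0.01 and 0.02 over all genes. Without DMSO 72 h replicate 2 the calls in DMSO became 12 higher and 31 lower, with a median of -0.10 (-0.06 without DMSO 24 h replicate 3, and -0.01 without DMSO 24 h replicate 2 or DMSO 72 h replicate 1). Without cisplatin 72 h replicate 2 those in cisplatin became 8 higher and 34 lower, with a median of -0.17. The 4 rises and 4 falls that were largest in each comparison passed in each of the 17 other settings. The difference between these comparisons is the difference of the cisplatin effect between the times, for which 0 members passed.

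Markers moved with time as well. The summed CPM of the 9 markers of other cells were 3434, 3473 and 3475 in DMSO and 3355, 3447 and 3479 in cisplatin at 24 h, and 2056, 2033 and 2126 in DMSO and 2308, 2165 and 2171 in cisplatin at 72 h. The libraries at 72 h lay below those at 24 h in this sum, which was nearly all PECAM1 and CDH5, with PTPRC, PTPRZ1 and DES at 0. TIE1 rose instead, from group means of 1783 and 1776 CPM at 24 h to 2409 and 2506 at 72 h in DMSO and cisplatin, while KDR and TEK moved less. Summed epithelial markers were 199, 192 and 178 CPM in DMSO and 181, 194 and 195 in cisplatin at 24 h. At 72 h they were 169, 173 and 168 in DMSO and 179, 189 and 174 in cisplatin, with CDH1 and SOX17 at 0. KRT18, the most abundant, fell from 173 to 134 CPM in DMSO and from 175 to 145 in cisplatin, while KRT8 and EPCAM rose, as given above. Summed mesenchymal markers, nearly all VIM with CDH2 at 0, were 7466, 7029 and 6956 CPM in DMSO and 6809, 7059.8 and 7142 in cisplatin at 24 h. At 72 h they were 8343, 8461 and 8345 in DMSO and 7953, 8366 and 8505 in cisplatin. The part of these markers in the differences over time was not tested. In bulk libraries, fewer cells of a type and less RNA per cell cannot be told apart.

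**Figure D3:**
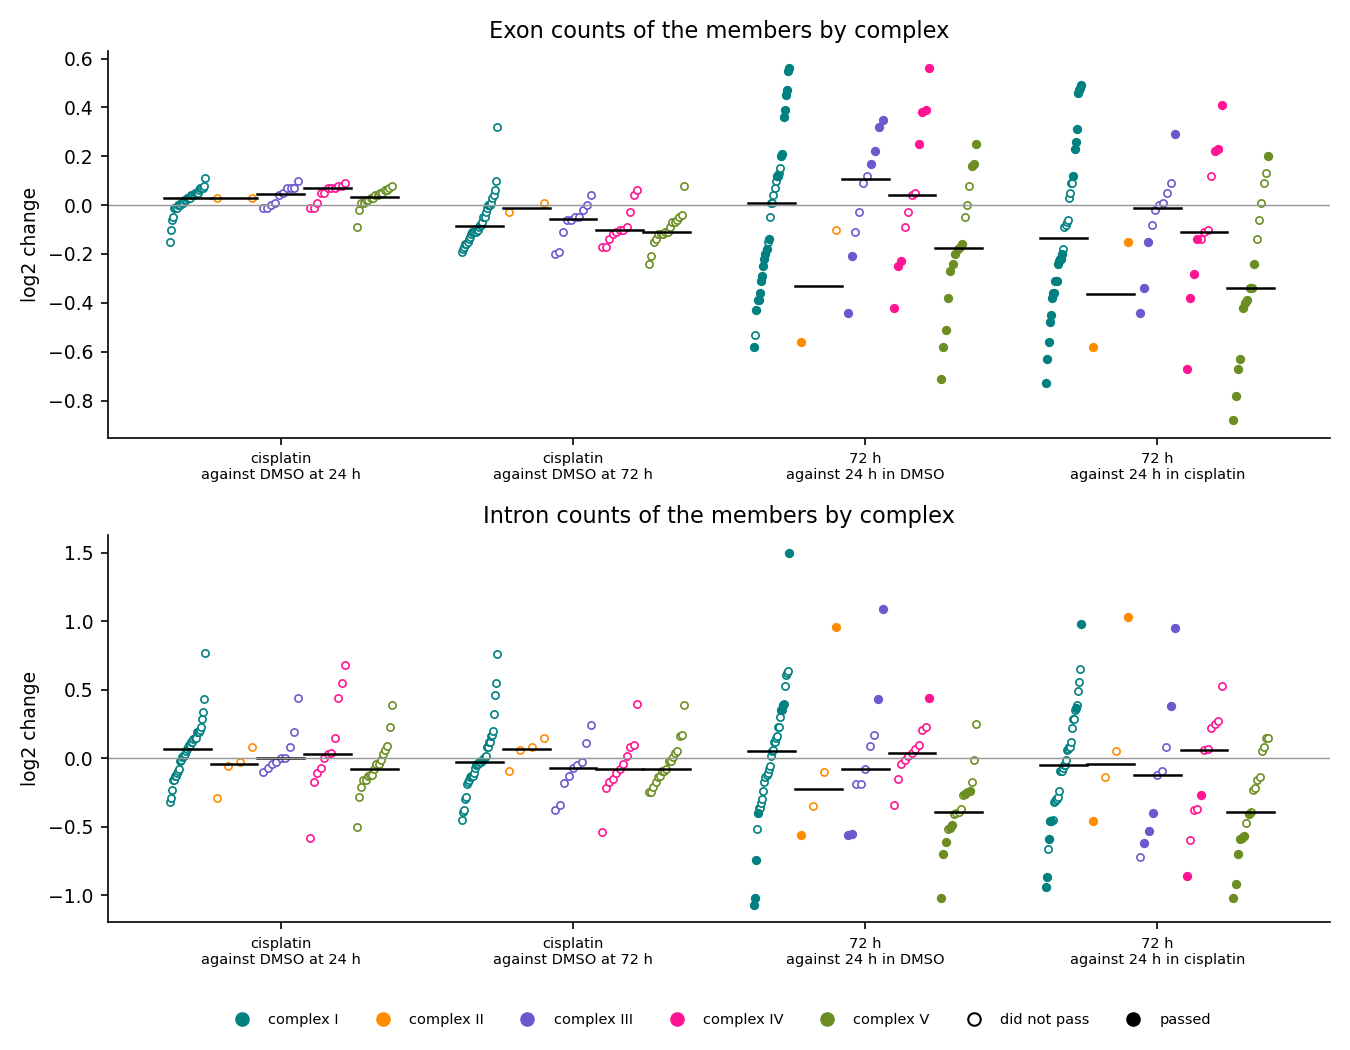
Log2 changes of exon counts (top) and intron counts (bottom) of the members in the 4 comparisons, 1 point per tested member, coloured by complex; filled points passed at an adjusted p under 0.05 by edgeR and bars are medians. None of the points for cisplatin against DMSO is filled, and complex V has exon medians of -0.18 and -0.34 over time in DMSO and cisplatin.

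Of the 32 members of complex I, which oxidises NADH, that were tested for exon counts, 10 rose and 12 fell in DMSO (32.6 and 32.5% of 10444 genes), and 8 rose and 15 fell in cisplatin (32.0 and 31.5% of genes). The medians were 0.01 in DMSO and -0.13 in cisplatin, and the counts in DMSO were close to the shares over all genes. NDUFA7, NDUFA11, NDUFA13, NDUFB7, NDUFB8, NDUFS7 and NDUFV1 rose in both treatments, NDUFB9 and NDUFS4 were among those higher in DMSO alone, and NDUFA3 passed as higher in cisplatin. NDUFA2, NDUFA5, NDUFA8, NDUFA9, NDUFB3, NDUFB6, NDUFB10, NDUFC2, NDUFS1, NDUFS3, NDUFS5 and NDUFS6 fell in both, and NDUFA1, NDUFA4 and NDUFB2 passed as lower in cisplatin. NDUFA10, NDUFC1, NDUFS8, NDUFV2 and NDUFV3 did not pass in exon counts in either treatment, with log2 changes between -0.53 (NDUFV3 in DMSO) and 0.13 (NDUFS8 in DMSO). Some calls were lost in other settings. In DMSO this held for NDUFA8 without DMSO 72 h replicate 3 (-0.12), for NDUFB3 without DMSO 72 h replicate 1 (-0.25), for NDUFB6 without DMSO 24 h replicate 1 (-0.13) or 2 (-0.23) or DMSO 72 h replicate 1 (-0.14) or 3 (-0.21), and for NDUFB10 without DMSO 24 h replicate 1 (-0.24) or 2 (-0.30) or DMSO 72 h replicate 3 (-0.23). It also held for NDUFS3 without DMSO 24 h replicate 1 (-0.12) or 2 (-0.13) or DMSO 72 h replicate 1 (-0.14) or 3 (-0.11) and with the 6 libraries alone (-0.13), for NDUFS4 without DMSO 72 h replicate 2 (0.13), and for NDUFV1 without DMSO 24 h replicate 1 (0.12), 2 (0.13) or 3 (0.10) or DMSO 72 h replicate 1 (0.12) or 2 (0.11) and with no filter (0.12). In cisplatin calls were lost for NDUFA3 without cisplatin 24 h replicate 1 (0.20) or cisplatin 72 h replicate 2 (0.19), for NDUFB6 without cisplatin 24 h replicate 1 (-0.21), 2 (-0.21) or 3 (-0.19) or cisplatin 72 h replicate 1 (-0.13), and for NDUFV1 without cisplatin 24 h replicate 1 (0.10) or 3 (0.10) or cisplatin 72 h replicate 2 (0.09) or 3 (0.12) and with no filter (0.11). Others passed, in DMSO NDUFA1 without DMSO 72 h replicate 2 (-0.28) and with no filter (-0.15), NDUFV2 without DMSO 72 h replicate 3 (0.19), and NDUFA3 without DMSO 24 h replicate 1 (0.23) or DMSO 72 h replicate 1 (0.24).

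Among the complex I members that rose, NDUFA13, an accessory subunit anchored at the foot of the matrix arm, had 136, 132 and 123 exon CPM in DMSO and 129.9, 141 and 125 in cisplatin at 24 h. At 72 h it had 183, 197 and 197 CPM in DMSO and 167, 207 and 182 in cisplatin. The times did not overlap in either treatment, with rises of 0.56 (SE 0.07, adjusted p 1.41e-07) and 0.49 (SE 0.07, adjusted p 1.14e-06) on the log2 scale. NDUFA11, a membrane arm subunit, had 28.9, 25.9 and 21.0 CPM at 24 h and 32.5, 42.1 and 37.1 at 72 h in DMSO, without overlap, and rose by 0.55 there and by 0.47 in cisplatin. NDUFA7, a matrix arm subunit, had 22.9, 21.4 and 21.3 CPM at 24 h and 28.4, 32.6 and 29.7 at 72 h in DMSO. It rose by 0.47 in DMSO and by 0.48 in cisplatin, without overlap. NDUFS7, the core subunit with the last iron-sulfur cluster before ubiquinone, had 65.0, 69.3 and 73.5 CPM at 24 h and 88.2, 99.4 and 98.5 at 72 h in cisplatin. Also without overlap, it rose by 0.46 (adjusted p 2.31e-05) in cisplatin and by 0.39 in DMSO. Each of these 4 genes overlaps another annotated gene, NDUFA7, NDUFA11 and NDUFA13 on the same strand and NDUFS7 on the opposite strand.

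Largest among the falls of complex I was that of NDUFS6, a zinc-binding accessory subunit needed to attach the NADH-oxidising module. Its gene lies at chr5:1801407-1816048. NDUFS6 had 156, 146 and 148 exon CPM in DMSO and 149, 155 and 159 in cisplatin at 24 h, and 104, 102 and 95.3 in DMSO and 91.8, 94.6 and 93.1 in cisplatin at 72 h. No library at 72 h reached those at 24 h, and the log2 changes were -0.58 (SE 0.05, adjusted p 1.24e-09) and -0.73 (SE 0.05, adjusted p 2.64e-11). Its intron counts did not pass, with log2 changes of -0.17 and -0.24. NDUFS6 and NDUFS7, whose promoters are printed above, thus moved in opposite directions in both treatments. NDUFS1, the largest core subunit, which carries iron-sulfur clusters, fell by 0.36 in exon counts in each treatment. NDUFA9, an accessory subunit beside the ubiquinone module, fell by 0.31 in each. NDUFV1, the core subunit that binds NADH and FMN, rose by 0.12 in each, with calls lost in several settings as given above, and NDUFB8 rose by 0.45 in DMSO and 0.23 in cisplatin. NDUFA4 had log2 changes of -0.05 in DMSO, where it did not pass, and -0.23 in cisplatin.

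In intron counts, all 35 members of complex I were tested, and 3 rose and 4 fell in DMSO (17.2 and 16.2% of 9618 genes) and 2 rose and 5 fell in cisplatin (16.4 and 15.4%). The 2 rises in cisplatin became 1 without cisplatin 24 h replicate 3, cisplatin 72 h replicate 2 or cisplatin 72 h replicate 3. NDUFA2, a matrix arm subunit with a thioredoxin-like fold, rose most in introns while its exon counts fell. Its intron CPM were 12.7, 8.15 and 9.92 in DMSO and 8.58, 12.3 and 13.2 in cisplatin at 24 h, and 26.4, 28.1 and 31.9 in DMSO and 21.0, 22.8 and 23.3 in cisplatin at 72 h. The times did not overlap, and the intron log2 changes were 1.50 (SE 0.27, adjusted p 1.46e-05) and 0.98 (SE 0.27, adjusted p 0.00302). Exon CPM of NDUFA2 were 70.9, 66.4 and 63.3 at 24 h and 56.3, 56.3 and 56.1 at 72 h in DMSO, and 67.5, 69.3 and 68.5 against 43.8, 55.0 and 50.9 in cisplatin. They fell by 0.25 and 0.45, also without overlap. The exon/intron ratio went from 77.0, 119 and 83.9 to 31.6, 29.1 and 25.2 in DMSO, a log2 change of -1.70 (adjusted p 1.42e-05), and changed by -1.35 in cisplatin. NDUFA2 (chr5:140638740-140647771, - strand) overlaps IK and TMCO6 on the opposite strand, and their part in its intron counts was not tested.

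NDUFC1, a small membrane arm subunit, and NDUFS1 fell in introns. NDUFC1 had 72.0, 93.2 and 71.6 intron CPM in DMSO and 84.1, 75.6 and 93.4 in cisplatin at 24 h, and 48.8, 55.2 and 40.2 in DMSO and 53.6, 38.3 and 38.1 in cisplatin at 72 h. It fell by 0.74 and 0.94 on the log2 scale without overlap, while its exon counts, 32.1, 32.0 and 31.5 against 33.5, 35.0 and 32.0 CPM in DMSO, did not pass. Its ratio rose by 0.88 in DMSO (adjusted p 0.00180) and by 0.95 in cisplatin (adjusted p 0.000562), the largest rises among the members in each. NDUFC1 overlaps MGARP on its own strand. NDUFS1 had 29.7, 50.9 and 41.1 intron CPM at 24 h and 25.3, 21.5 and 15.1 at 72 h in DMSO, and 45.2, 38.7 and 40.5 against 20.1, 26.3 and 20.6 in cisplatin. Again without overlap, introns fell by 1.02 and 0.87. The NDUFS1 ratio rose by 0.73 in DMSO (adjusted p 0.0272, 0.0110 to 0.205 over 15 other settings) and by 0.59 in cisplatin. In DMSO the call of the ratio was lost without DMSO 24 h replicate 2 (0.55), DMSO 24 h replicate 3 (0.71), DMSO 72 h replicate 2 (0.76) and DMSO 72 h replicate 3 (0.51). In cisplatin it was lost without DMSO 72 h replicate 2 (0.59), cisplatin 24 h replicate 1 (0.55) or 2 (0.57) or cisplatin 72 h replicate 1 (0.47) or 3 (0.56).

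NDUFV3, a small subunit of the NADH-oxidising module, fell most in introns in DMSO, from 23.3, 17.3 and 22.7 CPM to 6.46, 14.3 and 9.27, a log2 change of -1.07 (adjusted p 0.00398). In cisplatin it had 18.9, 19.5 and 17.4 CPM at 24 h and 12.9, 16.4 and 11.2 at 72 h, and the change of -0.45 did not pass. NDUFS7 had an intron change of -0.30 in cisplatin, which did not pass (it passed without cisplatin 24 h replicate 1 (-0.37) and with the library sizes of the exon counts (-0.37)), and its ratio rose there from 7.79, 6.52 and 8.28 to 13.3, 13.9 and 12.2, by 0.83 (adjusted p 0.000241). NDUFV1 fell in introns by 0.40 in DMSO and 0.46 in cisplatin while its exon counts rose, and its ratio rose by 0.59 and 0.64. NDUFA5, a matrix arm subunit, went from ratios of 26.2, 17.5 and 24.6 to 14.2, 13.6 and 12.8 in cisplatin, a change of -0.69 (adjusted p 0.00532), without overlap. NDUFA9 changed by -0.58 in its ratio in cisplatin. That call was lost without cisplatin 24 h replicate 1 (-0.42) or 3 (-0.54) or cisplatin 72 h replicate 1 (-0.57), 2 (-0.63) or 3 (-0.57). Intron counts of NDUFA3 rose in both treatments, by 0.39 and 0.37, and those of NDUFB2 rose in DMSO by 0.35. The NDUFA3 call was lost in DMSO without DMSO 24 h replicate 2 (0.37) or 3 (0.33) or DMSO 72 h replicate 1 (0.34) or 3 (0.39) and with the library sizes of the exon counts (0.32), and in cisplatin without cisplatin 24 h replicate 1 (0.37), 2 (0.38) or 3 (0.36) or cisplatin 72 h replicate 2 (0.33) or 3 (0.31) and with the library sizes of the exon counts (0.30). That of NDUFB2 was lost with the library sizes of the exon counts (0.28). Falls in cisplatin included NDUFC2 with -0.59 and NDUFS3 with -0.46. The NDUFS3 call was lost without cisplatin 24 h replicate 2 (-0.34) or cisplatin 72 h replicate 1 (-0.38). NDUFB4, without an exon entry, had intron changes of 0.06 and -0.09 that did not pass. NDUFB11 (0.62 and -0.28) and NDUFA12 (-0.06 and -0.30) did not pass either.

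Complex II, which oxidises succinate, had 2 members with enough exon counts. SDHA, its flavoprotein, had 308, 304 and 293 exon CPM in DMSO and 299.7, 319.6 and 306 in cisplatin at 24 h, and 202, 209 and 203 in DMSO and 207, 209 and 205 in cisplatin at 72 h. The times were far apart, with log2 changes of -0.56 (SE 0.05, adjusted p 2.85e-10) and -0.58. SDHA introns fell as well, by 0.56 and 0.46, and its ratio changed by 0.05 and -0.04 without passing. The intron call was lost in DMSO without DMSO 24 h replicate 3 (-0.33), and in cisplatin without cisplatin 24 h replicate 1 (-0.41) or 2 (-0.42) or cisplatin 72 h replicate 1 (-0.49), 2 (-0.41) or 3 (-0.47) and with DESeq2 (-0.46) or no filter (-0.45). SDHB, the iron-sulfur subunit, had 191, 193 and 183 CPM at 24 h and 172, 188 and 169.6 at 72 h in DMSO, with overlap and a log2 change of -0.10 that did not pass (it passed without DMSO 72 h replicate 2 (-0.15)). In cisplatin it had 196, 185 and 196 against 169, 178 and 172 CPM and fell by 0.15.

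The membrane anchors SDHC and SDHD, which hold the ubiquinone site, could be followed in introns alone. SDHC had 3 exon counts in all 12 libraries together. Its intron CPM were 7.42, 6.62 and 8.50 in DMSO and 9.73, 7.24 and 6.61 in cisplatin at 24 h, and 20, 14.9 and 9.96 in DMSO and 15.9, 20.2 and 10.8 in cisplatin at 72 h. The times did not overlap, and SDHC introns rose by 0.96 (SE 0.36, adjusted p 0.0304, 0.0116 to 0.176 over 18 other settings) and 1.03 (SE 0.33, adjusted p 0.0127). The call in DMSO was lost with DESeq2 (0.98) and without DMSO 24 h replicate 1 (0.96), DMSO 24 h replicate 2 (0.87), DMSO 72 h replicate 1 (0.71) or DMSO 72 h replicate 2 (0.94). The call in cisplatin was lost without cisplatin 24 h replicate 2 (0.94) or cisplatin 72 h replicate 2 (0.78). SDHC rested on 345 intron counts over the 12 libraries. SDHD had 42.4, 36.7 and 43.2 intron CPM at 24 h and 28.8, 26.5 and 38.8 at 72 h in DMSO, with overlap and a log2 change of -0.35 that did not pass, and -0.14 in cisplatin.

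Complex III, which passes electrons from ubiquinol to cytochrome c, had 10 members tested in exon counts, of which 4 rose and 2 fell in DMSO (32.6 and 32.5% of 10444 genes) and 1 rose and 3 fell in cisplatin (32.0 and 31.5%). The medians were 0.10 in DMSO and -0.01 in cisplatin. The 4 rises in DMSO became 1 without DMSO 72 h replicate 2, and the 2 falls became 1 without DMSO 24 h replicate 1 or 2 or DMSO 72 h replicate 1. UQCRB, UQCRH, UQCRHL and UQCR11 rose in DMSO, by 0.17 (UQCRH) to 0.35 (UQCR11), and UQCRHL rose in cisplatin by 0.29. UQCR10 and UQCRFS1 fell in both treatments, and UQCRC2 passed as lower in cisplatin. In DMSO calls were lost for UQCRB without DMSO 24 h replicate 1 (0.16) or DMSO 72 h replicate 2 (0.11), for UQCRH without DMSO 72 h replicate 2 (0.14), for UQCRHL without DMSO 24 h replicate 3 (0.25) or DMSO 72 h replicate 2 (0.24) or 3 (0.24) and with DESeq2 (0.31), and for UQCR10 without DMSO 24 h replicate 1 (-0.18) or 2 (-0.17) or DMSO 72 h replicate 1 (-0.16). In cisplatin they were lost for UQCRC2 without cisplatin 24 h replicate 3 (-0.13) or cisplatin 72 h replicate 1 (-0.13), and for UQCRHL without cisplatin 24 h replicate 1 (0.25) or 3 (0.27) or cisplatin 72 h replicate 2 (0.19) or 3 (0.22) and with DESeq2 (0.28). UQCRC2 passed in DMSO without DMSO 72 h replicate 2 (-0.16), and UQCR11 in cisplatin without cisplatin 72 h replicate 1 (0.16). UQCRFS1, the Rieske iron-sulfur protein, had 128, 135 and 129 exon CPM at 24 h and 95.1, 101 and 92.9 at 72 h in DMSO, without overlap, and fell by 0.44 in each treatment. UQCR10, a small subunit beside cytochrome c1, fell by 0.21 and 0.34. CYC1, cytochrome c1 itself, had exon changes of 0.09 and 0.05, UQCRC1, a core protein, -0.03 and -0.08, and UQCRQ, a small subunit, 0.12 and 0.00, none of which passed.

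UQCRH (chr1:46303698-46316776, + strand) had the clearest separation of intron counts. Its intron CPM were 315, 335 and 284 in DMSO and 291, 308 and 312 in cisplatin at 24 h, and 651, 703 and 641 in DMSO and 557, 615 and 589 in cisplatin at 72 h. Every library at 72 h lay above every library at 24 h, and introns rose by 1.09 (SE 0.09, adjusted p 1.38e-14) and 0.95 (SE 0.09, adjusted p 1.37e-12) on the log2 scale. Exon CPM were 458, 449 and 438 at 24 h and 495, 529 and 494 at 72 h in DMSO, a rise of 0.17 (adjusted p 0.0140, lost without DMSO 72 h replicate 2 (0.14)), and 466, 483 and 492 against 425, 499 and 529 in cisplatin, where the change of 0.01 did not pass and the times overlapped. The ratio went from 20.1, 19.6 and 20.2 to 11.3, 11 and 11.1 exon counts per intron count in DMSO, and from 21.0, 19.4 and 22.3 to 10.7, 11.2 and 12 in cisplatin. It changed by -0.85 (SE 0.10, adjusted p 1.85e-06) and -0.88 (SE 0.10, adjusted p 1.00e-06), and it passed in each of the 15 other settings. No annotated gene overlaps UQCRH. UQCRHL, a gene of 1 exon with nearly the coding sequence of UQCRH, shares that sequence, so fragments of the pair are uncertain.

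UQCRC2, the other core protein, also rose in introns, with 123, 114 and 118 CPM at 24 h and 147, 177 and 154 at 72 h in DMSO and 116, 117 and 124 against 171, 151 and 138 in cisplatin. Values at 72 h lay above those at 24 h, with rises of 0.43 and 0.38. The call in cisplatin (adjusted p 0.00826, 0.00645 to 0.0765 over 18 other settings) was lost without cisplatin 72 h replicate 1 (0.30) and with the library sizes of the exon counts (0.30). Its ratio changed by -0.46 in DMSO (adjusted p 0.0160) and -0.45 in cisplatin. In DMSO that call was lost without DMSO 24 h replicate 2 (-0.37) or DMSO 72 h replicate 2 (-0.44). In cisplatin it was lost without cisplatin 24 h replicate 1 (-0.43) or cisplatin 72 h replicate 1 (-0.36). CYC1 and UQCR10 fell in introns in both treatments, CYC1 by 0.55 and 0.40 and UQCR10 by 0.56 and 0.62, and UQCRB, which helps bind ubiquinone, fell by 0.53 in cisplatin. Intron calls were lost for UQCR10 in DMSO without DMSO 24 h replicate 2 (-0.26), and for CYC1 in cisplatin without cisplatin 24 h replicate 1 (-0.37) or cisplatin 72 h replicate 1 (-0.31). The ratio of CYC1 rose by 0.71 and 0.52, and that of UQCRB by 0.58 in cisplatin (lost without cisplatin 72 h replicate 2 (0.46)).

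Complex IV, which reduces oxygen, had 11 members tested in exon counts, of which 4 rose and 3 fell in DMSO (32.6 and 32.5% of 10444 genes) and 3 rose and 4 fell in cisplatin (32.0 and 31.5%). These counts were close to the shares over all genes. COX7A2L, which joins complex III and complex IV into supercomplexes, had 155, 165 and 162 exon CPM in DMSO and 174, 155 and 171 in cisplatin at 24 h. At 72 h it had 218, 261 and 231 in DMSO and 203, 229.5 and 229.7 in cisplatin. Libraries at 72 h lay above those at 24 h, and it rose by 0.56 (SE 0.07, adjusted p 7.22e-08) and 0.41. COX4I1 had 431, 454 and 413 CPM at 24 h and 568, 591 and 548 at 72 h in DMSO, without overlap, and rose by 0.39 there and by 0.23 in cisplatin. COX5B, a zinc-binding subunit, rose by 0.38 and 0.22 (the call in cisplatin was lost without cisplatin 72 h replicate 2 (0.16)). COX6A1 rose by 0.25 in DMSO, and its change of 0.12 in cisplatin did not pass (it passed without cisplatin 72 h replicate 1 (0.20)).

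COX7A2, the widely expressed isoform of subunit VIIa, fell in exon counts, with 77.6, 73.6 and 79.4 CPM at 24 h and 44.5, 46.8 and 54.0 at 72 h in cisplatin, without overlap. It fell by 0.67 in cisplatin and 0.42 in DMSO. COX6B1, which links the complex IV monomers, fell by 0.23 and 0.28, and COX7B, a small transmembrane subunit, by 0.25 and 0.38. COX5A, a subunit that faces the matrix, had a change of 0.04 in DMSO that did not pass and fell by 0.14 in cisplatin. COX7C (0.05 and -0.10) and COX8A (-0.09 and -0.11), both small transmembrane subunits, did not pass in exon counts in either treatment. In cisplatin they passed in other settings, COX7C without cisplatin 72 h replicate 3 (-0.15), and COX8A without cisplatin 24 h replicate 1 (-0.19). Calls were lost for COX6B1 in DMSO without DMSO 72 h replicate 1 (-0.17), and for COX5A in cisplatin without cisplatin 24 h replicate 1 (-0.13) or 3 (-0.12) or cisplatin 72 h replicate 1 (-0.11) or 3 (-0.16). COX7A2L and COX7A2, related by sequence, thus moved in opposite directions.

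Intron counts of complex IV gave 1 rise in DMSO (17.2% of 9618 genes) and 2 falls in cisplatin (15.4%) among 11 members. COX6C rose in DMSO from 64.1, 86.1 and 71.6 to 111, 109 and 85.1 CPM, with overlap, by 0.44 (SE 0.15, adjusted p 0.0156, 0.00601 to 0.106 over 18 other settings). That call was lost without DMSO 24 h replicate 1 (0.34), DMSO 72 h replicate 1 (0.38) or DMSO 72 h replicate 2 (0.39), and with the library sizes of the exon counts (0.38). COX6C overlaps VPS13B on the opposite strand. COX4I1 introns fell by 0.27 in cisplatin while its exon counts rose, and its ratio rose by 0.50 and 0.57. The COX4I1 intron call was lost without cisplatin 24 h replicate 1 (-0.26), 2 (-0.28) or 3 (-0.28) or cisplatin 72 h replicate 1 (-0.20) or 2 (-0.30) and with no filter (-0.27). COX8A introns fell by 0.86 in cisplatin, from 14.3, 18.8 and 11.6 to 4.19, 10.5 and 10.8 CPM, without overlap, a call lost without cisplatin 24 h replicate 1 (-0.91) or 2 (-0.63) or cisplatin 72 h replicate 1 (-0.53) and with DESeq2 (-0.85). Its ratio went from 258, 225 and 399 to 887, 412 and 377 there, with overlap, and rose by 0.87 (adjusted p 0.0405, 0.0124 to 0.277 over 15 other settings). The ratio's call was lost without cisplatin 24 h replicate 1 (0.85), cisplatin 24 h replicate 2 (0.64) or cisplatin 72 h replicate 1 (0.59).

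Complex V, the ATP synthase, had more falls than rises. Of 16 members tested in exon counts, 3 rose and 9 fell in DMSO (32.6 and 32.5% of 10444 genes) and 1 rose and 10 fell in cisplatin (32.0 and 31.5%). The medians were -0.18 and -0.34. The 3 rises in DMSO became 0 without DMSO 24 h replicate 3 or DMSO 72 h replicate 2. ATP5ME rose in both treatments and ATP5IF1 and ATP5PO passed as higher in DMSO. ATP5F1B, ATP5F1C, ATP5MC1, ATP5MC3, ATP5MF, ATP5MK, ATP5PB, ATP5PD and ATP5PF fell in both, and ATP5MJ passed as lower in cisplatin. ATP5F1D, ATP5F1E and ATP5MG did not pass in either, with log2 changes between -0.14 and 0.13. In DMSO calls were lost for ATP5IF1 without DMSO 24 h replicate 2 (0.17) or 3 (0.14), DMSO 72 h replicate 2 (0.10) or cisplatin 24 h replicate 3 (0.17) and with DESeq2 (0.16), for ATP5ME without DMSO 24 h replicate 3 (0.19) or DMSO 72 h replicate 2 (0.19), for ATP5PD without DMSO 24 h replicate 3 (-0.09) or DMSO 72 h replicate 1 (-0.11) or 3 (-0.16) and with the 6 libraries alone (-0.16), and for ATP5PO without DMSO 24 h replicate 1 (0.13) or 3 (0.14) or DMSO 72 h replicate 2 (0.08), and in cisplatin for ATP5ME without cisplatin 24 h replicate 1 (0.20) or 3 (0.17) or cisplatin 72 h replicate 2 (0.12) or 3 (0.18). ATP5MJ passed in DMSO without DMSO 72 h replicate 2 (-0.26), and in cisplatin ATP5F1E without cisplatin 72 h replicate 3 (-0.21) and with no filter (-0.14), and ATP5IF1 without cisplatin 72 h replicate 1 (0.17) did. Centred per gene, the median exon log2 level of the 16 was 0.08, 0.14 and 0.11 in DMSO and 0.17, 0.09 and 0.19 in cisplatin at 24 h, and -0.10, 0.03 and -0.12 in DMSO and -0.25, -0.14 and -0.13 in cisplatin at 72 h. The libraries at 72 h thus lay below those at 24 h within each treatment.

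ATP5MC1 and ATP5MC3 encode subunit c, whose ring turns with the proton flow, and differ in the sequences that target it to mitochondria. ATP5MC3 (chr2:175176258-175181710, - strand) had 108, 119.6 and 115 exon CPM in DMSO and 116, 116 and 126 in cisplatin at 24 h, and 74.1, 70.0 and 65.1 in DMSO and 61.0, 63.9 and 69.5 in cisplatin at 72 h. The times were far apart, and it fell by 0.71 (SE 0.06, adjusted p 9.66e-10) and 0.88 (SE 0.06, adjusted p 2.45e-11), the largest exon falls of any member in each treatment. ATP5MC3 introns fell by 0.61 and 0.70. ATP5MC1 had 114, 101 and 96.6 exon CPM at 24 h and 68.7, 69.4 and 70.8 at 72 h in DMSO, and 100.5, 107 and 116 against 61.7, 70.4 and 70.9 in cisplatin. It fell without overlap, by 0.58 and 0.67. Its introns fell further, from 78.4, 75.4 and 101 to 41.7, 48.0 and 36.0 CPM in DMSO, by 1.02 (SE 0.16, adjusted p 1.02e-06), and by 0.92 in cisplatin. Ratios of ATP5MC1 (0.51 and 0.32) and ATP5MC3 (-0.03 and -0.13) did not pass, except that of ATP5MC1 in DMSO with a minimum of 1 count (0.51).

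ATP5MF had 27.1, 27.3 and 25.5 exon CPM at 24 h and 20.1, 19.3 and 16.9 at 72 h in DMSO, and 28.2, 26.7 and 26.6 against 15.6, 15.5 and 16.5 in cisplatin. The times did not overlap, and it fell by 0.51 and 0.78 (SE 0.08, adjusted p 8.55e-09 in cisplatin). ATP5F1B had 1507, 1583 and 1483 CPM at 24 h and 1306, 1388 and 1337 at 72 h in DMSO, again without overlap, and fell by 0.18 and 0.24. ATP5F1C, the gamma subunit of the central stalk, fell by 0.24 and 0.39. ATP5MJ, a small subunit of the membrane part, fell most in introns in cisplatin, from 28.0, 28.6 and 22.3 to 13.5, 12.7 and 13.4 CPM, by 1.02 (SE 0.25, adjusted p 0.00104), and by 0.70 in DMSO, where the call was lost without DMSO 24 h replicate 2 (-0.53) or 3 (-0.67) or DMSO 72 h replicate 2 (-0.69) or 3 (-0.60) and with DESeq2 (-0.70) or no filter (-0.71).

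ATP5IF1, the inhibitor of ATP hydrolysis by the synthase, had 92.8, 90.3 and 86.1 exon CPM at 24 h and 95.2, 110.5 and 96.9 at 72 h in DMSO and rose by 0.17, a call lost in the settings given above. Its introns fell from 294, 302 and 268 to 218, 206 and 192 CPM in DMSO, by 0.49, and by 0.59 in cisplatin. The ATP5IF1 ratio went from 4.36, 4.36 and 4.23 to 6.47, 7.81 and 7.24 in DMSO, and from 4.14, 4.38 and 4.28 to 6.18, 7.71 and 7.63 in cisplatin. Without overlap, it rose by 0.73 (SE 0.13, adjusted p 0.000292) and 0.74 (SE 0.13, adjusted p 0.000219), and it passed in each of the 15 other settings. ATP5PO, the stalk subunit named for oligomycin sensitivity, had 215, 238 and 219 exon CPM at 24 h and 233, 277 and 241 at 72 h in DMSO, with overlap, and rose by 0.16, a call also lost in the settings given above. The ATP5PO ratio rose from 80.2, 80.3 and 61.5 to 128, 156 and 99.9 in DMSO, by 0.72 (adjusted p 0.00843, 0.00377 to 0.0627 over 15 other settings), and by 0.56 in cisplatin. In DMSO that call was lost without DMSO 24 h replicate 3 (0.60) or DMSO 72 h replicate 2 (0.57). In cisplatin it was lost without cisplatin 24 h replicate 1 (0.59) or 2 (0.50) or cisplatin 72 h replicate 1 (0.52), 2 (0.62) or 3 (0.55). ATP5MK had ratios of 21.3, 27.1 and 40.4 at 24 h and 20.7, 15.7 and 15.3 at 72 h in cisplatin, without overlap, and changed by -0.68 (adjusted p 0.0303, 0.0156 to 0.123 over 15 other settings). The ATP5MK call was lost without cisplatin 24 h replicate 2 (-0.69), cisplatin 24 h replicate 3 (-0.51), cisplatin 72 h replicate 2 (-0.61) or cisplatin 72 h replicate 3 (-0.62).

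**Figure D4:**
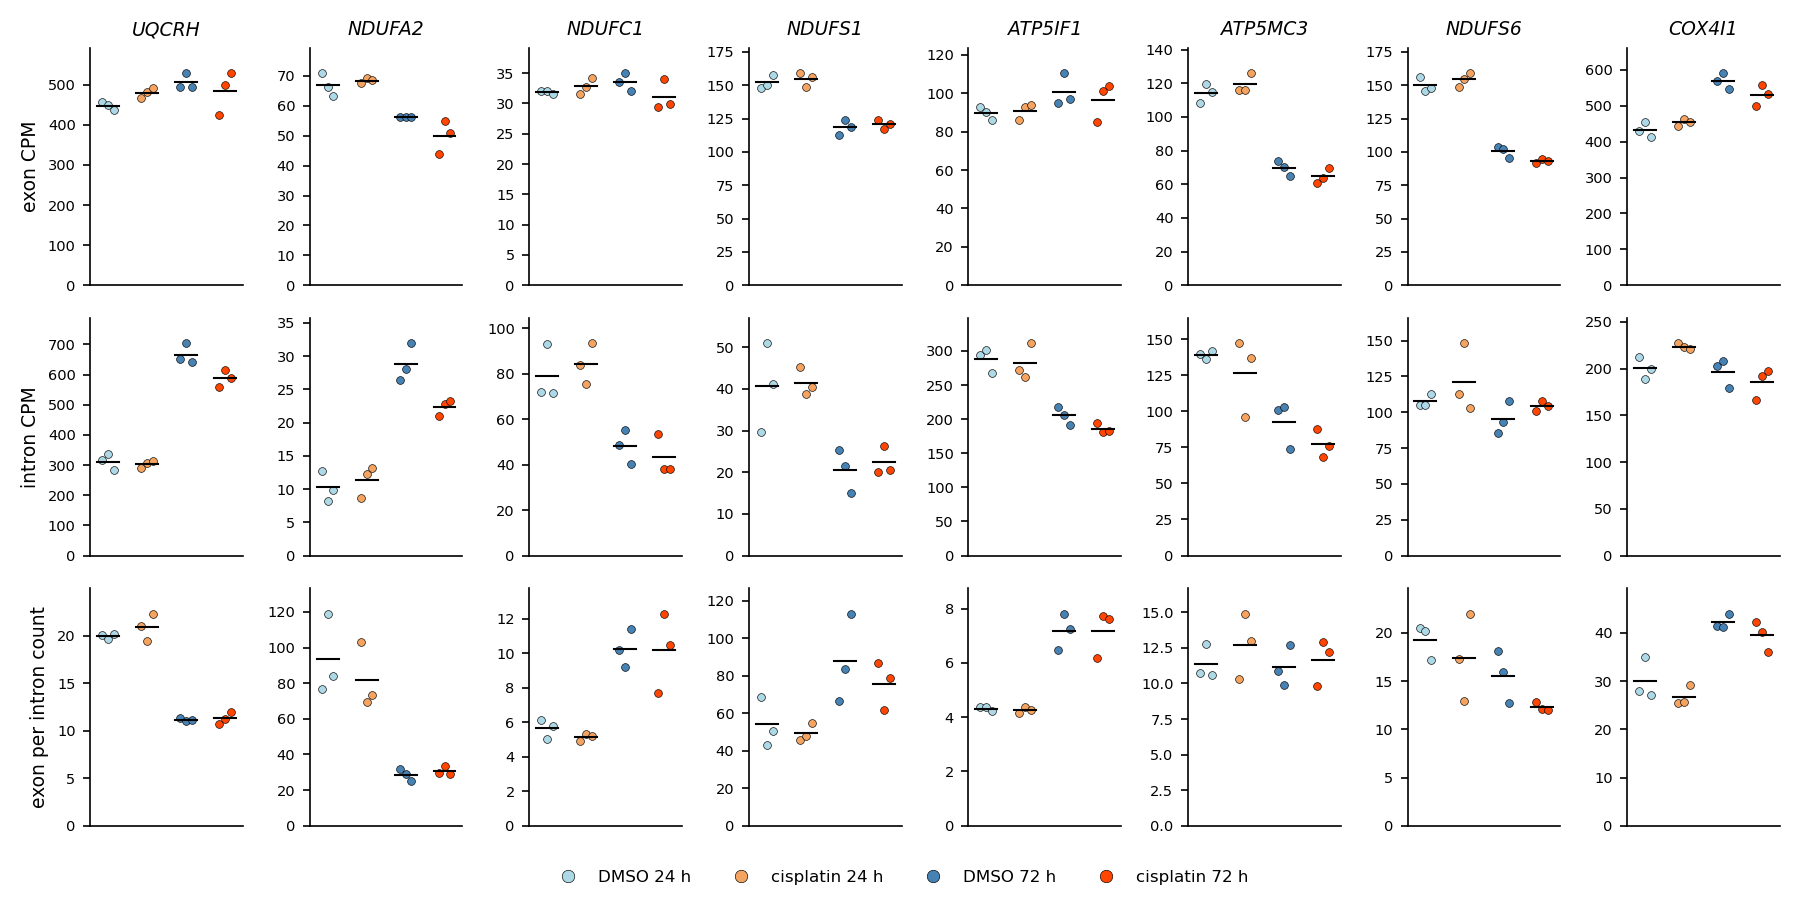
Exon CPM (top), intron CPM (middle) and exon counts per intron count (bottom) of 8 members, chosen after their values were seen, with 1 point per library and bars for the means of the 4 groups of 3. UQCRH intron CPM lie between 284 and 335 at 24 h and between 557 and 703 at 72 h.

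Over all complexes, 76 members were tested in intron counts, and edgeR called 7 higher (17.2% of 9618 genes) and 14 lower (16.2%) at 72 h in DMSO. In cisplatin it called 5 higher (16.4%) and 18 lower (15.4%). The 7 rises in DMSO became 4 without DMSO 72 h replicate 1, and the 5 in cisplatin became 3 without cisplatin 72 h replicate 2. With the library sizes of the exon counts, there were 4 and 3 rises. Medians were -0.09 and -0.11, against -0.01 and -0.02 over all genes, and -0.16 and -0.18 with the library sizes of the exon counts. Complex V gave 0 rises and 7 falls in each treatment among 17 members, with a median of -0.39 in each. The 7 in DMSO became 3 without DMSO 24 h replicate 2, and the median in cisplatin became -0.25 without cisplatin 72 h replicate 1. In DMSO the 7 count ATP5MF and ATP5MF-PTCD1, whose models overlap, as 2 members. Calls there were lost for ATP5MF without DMSO 24 h replicate 1 (-0.24) or 2 (-0.19), DMSO 72 h replicate 1 (-0.10) or cisplatin 72 h replicate 3 (-0.26) and with DESeq2 (-0.26), for ATP5MF-PTCD1 without DMSO 24 h replicate 1 (-0.19) or 2 (-0.16) or DMSO 72 h replicate 1 (-0.24) or 3 (-0.21), and for ATP5PO without DMSO 24 h replicate 2 (-0.49) or 3 (-0.44) or DMSO 72 h replicate 1 (-0.45) or 2 (-0.43) and with DESeq2 (-0.51), no filter (-0.51) or the 6 libraries alone (-0.51), and in cisplatin for ATP5MG without cisplatin 24 h replicate 2 (-0.54) or cisplatin 72 h replicate 3 (-0.52). DESeq2 called 17 of 76 members in DMSO (28.2% of 10260 genes) and 21 of 76 in cisplatin (27.0% of 9998 genes). Of the 27 members with lower exon counts in DMSO, 6 also fell in introns (33.4% of 3392 genes with lower exon counts): ATP5MC1, ATP5MC3, ATP5MF, NDUFS1, SDHA and UQCR10. In cisplatin 9 of 34 did (31.6% of 3295 genes): ATP5F1B, ATP5MC1, ATP5MC3, ATP5MJ, NDUFC2, NDUFS1, NDUFS3, SDHA and UQCR10. Exon counts rose and intron counts fell for ATP5IF1, ATP5PO and NDUFV1 in DMSO (3 of 21 members with higher exon counts, 2% of 3404 genes) and for COX4I1 and NDUFV1 in cisplatin (2 of 13, 2.45% of 3341 genes). The reverse, lower exon and higher intron counts, was found for NDUFA2 in both treatments and for UQCRC2 in cisplatin (1 of 27 and 2 of 34, 2.06 and 2.25% of genes). Exon and intron counts rose together for UQCRH in DMSO (35.8% of genes with higher exon counts) and NDUFA3 in cisplatin (34.1%). Where an exon or intron call is lost in another setting, as given for each gene above, so is its place in these counts.

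For the exon/intron ratio over time, edgeR called 8 of 70 members higher (8.08% of 9393 genes) and 3 lower (3.37%) in DMSO, and 11 higher (8.39%) and 8 lower (3.57%) in cisplatin. Medians were 0.17 and 0.09, against 0.10 and 0.11 over all genes. The median in cisplatin became -0.02 without cisplatin 24 h replicate 2, so its sign rests on that library, and 0.14 without cisplatin 72 h replicate 1. ATP5IF1, ATP5PO, COX4I1, CYC1, NDUFC1, NDUFS1, NDUFS7 and NDUFV1 rose in both treatments, and ATP5MG, COX8A and UQCRB passed as higher in cisplatin. NDUFA2, UQCRC2 and UQCRH fell in both, and ATP5F1C, ATP5MF, ATP5MK, NDUFA5 and NDUFA9 passed as lower in cisplatin. Without cisplatin 72 h replicate 3 the 19 calls in cisplatin became 12, and with the replicate number as a block they became 18 (10 higher and 8 lower). The 11 rises there became 7 without cisplatin 24 h replicate 2, and the 8 falls became 4 without cisplatin 72 h replicate 3 and 5 without cisplatin 24 h replicate 1, cisplatin 72 h replicate 1 or cisplatin 72 h replicate 2. Calls were lost for ATP5F1C without cisplatin 24 h replicate 1 (-0.38) or cisplatin 72 h replicate 3 (-0.41), for ATP5MF without cisplatin 24 h replicate 1 (-0.42) or 2 (-0.52) or cisplatin 72 h replicate 1 (-0.53), 2 (-0.41) or 3 (-0.53), and for ATP5MG without cisplatin 24 h replicate 2 (0.48) or cisplatin 72 h replicate 2 (0.55) or 3 (0.53). In DMSO, ATP5MG without cisplatin 24 h replicate 2 (0.53) and with a minimum of 1 count (0.54), and UQCRB without DMSO 24 h replicate 1 (0.56) or cisplatin 24 h replicate 2 (0.46) or 3 (0.46) and with a minimum of 1 count (0.46) passed. The logistic regression called 24 of 70 members higher (22.5% of 9739 genes) and 11 lower (11.1%) in DMSO, and 24 of 71 higher (29.0% of 9818 genes) and 15 lower (11.6%) in cisplatin. With a dispersion per gene it called 2 of 70 (0.657% of genes) and 1 of 71 (0.988%).

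**Figure D5:**
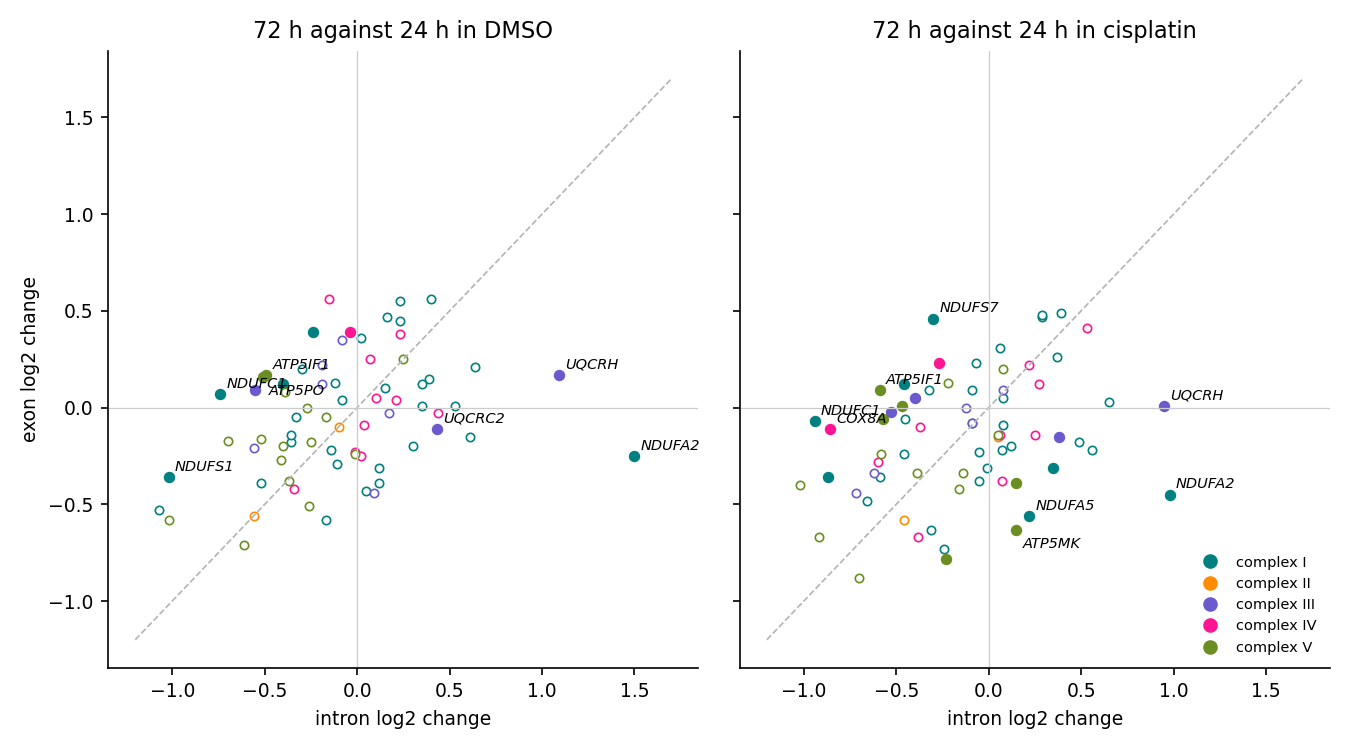
Exon log2 change against intron log2 change of the members between 72 and 24 h, in DMSO (left) and cisplatin (right), 1 point per member with a tested ratio, coloured by complex; filled points passed the edgeR ratio test and the dashed line marks equal changes. NDUFA2 (ratio changes -1.70 and -1.35) and UQCRH (-0.85 and -0.88) lie to the right of the line and NDUFC1 (0.88 and 0.95) to its left.

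The share of intron counts among all counts of the members was 4.67, 4.41 and 4.60% in DMSO and 4.61, 5.00 and 4.30% in cisplatin at 24 h, and 4.17, 4.07 and 4.17% in DMSO and 4.36, 4.29 and 4.28% in cisplatin at 72 h. In DMSO the libraries at 72 h lay below those at 24 h, a separation that rested on ATP5MF and ATP5MF-PTCD1, and in cisplatin the times overlapped. Over all genes, the group means were 6.49, 6.75, 6.81 and 7.03% in the order DMSO 24 h, cisplatin 24 h, DMSO 72 h and cisplatin 72 h. Without ATP5MF and ATP5MF-PTCD1, left out after the values were seen because their models overlap, the members' means were 3.25, 3.36, 3.07 and 3.26%. The DMSO libraries then overlapped, with 3.28, 3.06 and 3.40% at 24 h and 3.18, 2.96 and 3.07% at 72 h. Complex IV had the lowest shares, 1.39, 1.49, 1.28 and 1.34%, and complex III went from 3.23 and 3.27% at 24 h to 3.87 and 3.97% at 72 h. UQCRH, whose introns rose, held 13674 intron counts over the 12 libraries, and UQCRC2, next in complex III, held 3898. CYC1 and UQCR10 fell in introns, and the share of complex III without UQCRH was not computed. Complex I had 5.73, 6, 5.22 and 5.58%, complex II 2.40, 2.26, 2.51 and 2.73%, and complex V 6.42, 6.39, 5.54 and 5.63%. In complex V, ATP5MF-PTCD1 and ATP5MF held 38534 and 18555 intron counts over the 12 libraries, and ATP5IF1, next, held 6301. The share of complex V without the overlapping pair was not computed, so its level and its fall may rest on them.

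Per gene, the median intron share was 2.69% for 70 members and 6.42% for 9393 genes. ATP5MF-PTCD1 was highest with 100%, from 38534 intron and 0 exon counts over the 12 libraries. Its model overlaps ATP5MF, PTCD1 and the opposite-strand gene CPSF4. SDHC had 99.1% and NDUFA12, a matrix arm subunit with 29 exon counts in all, 96.0%. COX4I2 was lowest with 0% of 4 counts, followed by COX8A with 0.255% and NDUFS5 with 0.258%. The high shares of SDHC and NDUFA12 went with exon counts near 0, and how their exon entries were made was not tested.

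Of 4 other genes tied to the chain, read from the same fits, 0 rose and 2 fell in DMSO (32.6 and 32.5% of 10444 genes). In cisplatin 0 rose and 3 fell (32.0 and 31.5%). CYCS, cytochrome c, which carries electrons from complex III to complex IV, had 649.6, 692 and 784 exon CPM in DMSO and 773, 696 and 751 in cisplatin at 24 h, and 381, 384 and 344 in DMSO and 334, 322 and 339.9 in cisplatin at 72 h. The times did not overlap, and it fell by 0.94 (SE 0.06, adjusted p 3.99e-12) and 1.16 (SE 0.06, adjusted p 1.07e-13). NDUFAB1, the acyl carrier protein that also sits in complex I, fell by 0.35 and 0.53. Group means of COQ7 were 5.13 and 5.56 CPM at 24 and 72 h in DMSO and 5.51 and 5.64 in cisplatin. Those of ETFDH were 21.3 and 18.9 CPM in DMSO and 22.3 and 18.2 in cisplatin.

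Of 15 regulators of mitochondrial biogenesis and mitochondrial gene expression, 14 were tested, and 1 rose and 7 fell in DMSO (32.6 and 32.5% of 10444 genes) and 2 rose and 9 fell in cisplatin (32.0 and 31.5%). The 1 rise in DMSO became 3 without DMSO 24 h replicate 3, 2 without DMSO 24 h replicate 1 and 0 without DMSO 72 h replicate 1. NRF1, the factor whose core motif was searched above, had 28.1, 30.8 and 27.7 exon CPM at 24 h and 21.6, 20.1 and 20.5 at 72 h in DMSO, without overlap, and fell by 0.48 and 0.51. TFAM, which packages and transcribes mitochondrial DNA, fell by 0.63 and 0.58. The coactivator genes PPARGC1B (-0.90 and -0.67) and PPRC1 (-0.59 and -0.45) and the mitochondrial DNA polymerase gene POLG (-0.48 and -0.40) also fell, while the nuclear receptor gene ESRRA rose by 0.21 (lost without DMSO 72 h replicate 1 (0.14)) and 0.14 (lost without DMSO 24 h replicate 2 (0.14), DMSO 72 h replicate 3 (0.14), cisplatin 24 h replicate 1 (0.13) or 3 (0.12) or cisplatin 72 h replicate 2 (0.12) or 3 (0.14) and with the other normalization (0.14) or DESeq2 (0.14)). YY1 rose by 0.17 in cisplatin, with 0.09 in DMSO, which did not pass, and GABPA, an ETS factor, did not pass with 0.11 and 0.12. In DMSO GABPA without DMSO 24 h replicate 3 (0.19), and YY1 without DMSO 24 h replicate 3 (0.13) passed. Of 43 assembly factors tested, 12 rose and 13 fell in DMSO, close to these shares over all genes, and 8 rose and 17 fell in cisplatin. Of 73 mitochondrial ribosomal protein genes tested, 14 rose and 24 fell in DMSO and 6 rose and 37 fell in cisplatin, with a median of -0.15 in cisplatin beside -0.14 for the members.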

How the data were processed

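The authors trimmed reads with Trim Galore 0.6.0, checked them with FastQC 0.11.8, aligned them to GRCh38 with HISAT2 2.1.0 and counted fragments per gene with HTSeq on separate exon and intron annotations. The deposited values are raw exon and intron counts of 12 libraries, not normalized. The strand option was not stated.

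Members were read from fits over all genes. Exon and intron counts were tested in R 4.3.3 with edgeR 4.0.16 (quasi-likelihood, TMM, filterByExpr), with 4 group means in 1 fit and Benjamini-Hochberg adjustment at 0.05. Intron CPM used TMM sizes of the intron counts. The ratio fit had a term per library and took genes reaching 10 counts of each kind in 3 or more libraries. The logistic regression (Wald test) needed at least 1 of each in all libraries compared. Other settings were DESeq2 1.42.0, another normalization, other filters, a replicate block, the 6 libraries compared alone and each of the 12 libraries left out. The tests were tested on simulated data. Tables and plots used Python 3.11.15, pandas 2.3.3, numpy 2.4.6 and matplotlib 3.10.9. Symbols were matched for 17485 of 17508 genes.

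The members and gene lists were chosen with earlier results of these data known. Named genes were chosen subunits of each complex, up to 4 members with the largest rise and 4 with the largest fall among those that passed in each comparison and count kind (the 2 with the smallest p where none passed), and the 3 highest and 3 lowest in level and intron share. Others were named to account for the remaining members, except 1 that is not reported here by name. All 12 libraries entered the comparisons. Precision is limited to that of 3 libraries per group, and intervals for single libraries were not computed.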

Additional observations from a re-analysis of the deposited data

How the results depend on the processing

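Exon counts gave 48 members called over time in DMSO and 47 in cisplatin. With other settings they gave 48 and 48 (normalization by DESeq2's median of ratios), 46 and 46 (DESeq2), 47 and 49 (no filter), and 46 and 49 (6 libraries alone). Leaving out 1 library gave 41 to 48 in DMSO and 41 to 49 in cisplatin for exon counts (12 higher and 31 lower in DMSO without DMSO 72 h replicate 2), and 16 to 23 and 17 to 23 for intron counts (21 and 23 with all libraries). Intron counts for cisplatin against DMSO at 72 h called 0 members, 1 with no filter and 1 with the 6 libraries alone, and 0 to 1 with 1 library left out (1 without cisplatin 24 h replicate 2 or DMSO 72 h replicate 3). With exon library sizes, intron calls over time split into 4 higher and 16 lower in DMSO and 3 and 21 in cisplatin. The ratio by edgeR over time gave 11 calls in DMSO and 19 in cisplatin. Leaving out 1 library gave 9 to 13 and 12 to 19 (12 without cisplatin 72 h replicate 3), and a minimum of 1 count gave 15 and 21.

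The logistic regression called 6, 13, 35 and 39 members for cisplatin at 24 h and 72 h and for time in DMSO and in cisplatin. With a dispersion per gene (quasi-binomial) it called 0, 0, 2 and 1 (0, 0, 0.657 and 0.988% of genes), where the dispersion takes in the spread between replicates. With 1 library left out it called 0 to 8 (0 without cisplatin 24 h replicate 2), 8 to 16 (8 without DMSO 72 h replicate 1, DMSO 72 h replicate 2 or cisplatin 72 h replicate 2), 27 to 34 and 31 to 40. The cause was not tested for these libraries.

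The members' median level was 43.7 with the union of exons as length and 137 with the canonical transcript, by the longer length. The intron share without ATP5MF and ATP5MF-PTCD1, added after seeing the data, was 3.25, 3.36, 3.07 and 3.26%. With NDUFA4 in complex IV, medians over time moved in exon counts for complex IV (0.04 to 0.01 in DMSO and -0.11 to -0.13 in cisplatin) and complex I (-0.13 to -0.09 in cisplatin), and in intron counts for complex IV in cisplatin (0.06 to 0.00).

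With the replicate number as a block, exon counts gave 48 and 48 calls over time, intron counts 21 and 23, the ratio 11 and 18, and the logistic regression 6, 14, 36 and 39. Pairing correlations across genes in exon counts were 0.10, 0.10 and 0.05 for time in cisplatin, where each of the 3 libraries correlated best with its own number, a hint from the data and not the design. In the other exon comparisons 0 or 1 did, with -0.05, 0.01 and 0.00 for cisplatin at 24 h, and in intron counts 2 did for cisplatin at 72 h and 0 or 1 elsewhere. No comparison met the level set for pairing. Across the named genes and settings, 953 values kept their direction and side of the threshold, 28 lost a call, 4 gained one and 0 reversed.

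The main limits are 3 libraries per group, markers that go against the labelled line, an unstated strand option with overlapping genes, pseudogene copies, and exon entries that cover part of a gene. Several members had few intron counts, which limits their ratio test.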
